A study of Mus musculus with 4 samples.

Results

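Dbp, Tef, Hlf, Nfil3, Bhlhe40 and Bhlhe41 are transcription factor genes at the output of the circadian clock, and the CTCF binding sites listed around them in mouse liver at ZT0 and ZT12 are described here. The 6 genes were chosen by name, out of 22350 protein-coding genes of the GENCODE annotation of mm9. A site was taken when it overlapped the gene body extended by 200 kb on both sides, called the window below. Of 10113 ZT0 sites and 6799 ZT12 sites, 23 and 20 lay in the 6 windows. No site lay in more than 1 window.

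CTCF ChIP-seq was carried out on livers of male, wild-type C57BL/6 mice, fed without restriction and kept in 12 h of light and 12 h of dark. The labels give an age of 8 weeks, which by the methods was the age when this light schedule began. The livers were those also used for Hi-C, for which a biological replicate was a pool of 2 livers. Livers were taken at ZT0 (lights on) and at ZT12 (lights off), with 2 biological replicates at each time. In ChIP-seq, chromatin fixed with formaldehyde is recovered with an antibody, here against CTCF, and a peak is a stretch with more recovered reads than its surroundings. Each time has 1 list of peak positions covering both replicates, and holds neither scores nor strands nor replicates. The replicate spread and the depth behind a site are therefore unknown, and a site listed at a single time has no replicate check. The lists are also much shorter than the total of CTCF sites that the study describes, so a site absent from a list was not necessarily uncalled. Liver tissue holds hepatocytes and other cell types, and the lists do not separate them. No control sample was analysed here.

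Dbp, Tef and Hlf encode the PAR bZIP activators, which bind D-box elements and drive rhythmic genes of hepatic detoxification and lipid metabolism. Nfil3, also called E4BP4, encodes a bZIP repressor that competes for the same elements. Bhlhe40 and Bhlhe41, also called Dec1 and Dec2, encode bHLH repressors that bind the E-boxes used by the CLOCK:BMAL1 activator. CTCF is a zinc finger protein that, together with cohesin, anchors chromatin loops and insulates neighbouring domains, and the strand of its motif sets the direction in which a loop is anchored.

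The sites around the 6 genes differed widely in number and were mostly listed at both times. Sites of the 2 lists that overlapped by at least 1 bp were called shared. Of the 23 ZT0 sites in the windows, 18 were shared (78.3%, 95% Wilson confidence interval 58.1 to 90.3%), beside 56.2% of all ZT0 sites. Of the 20 ZT12 sites, 18 were shared (90.0%, 69.9 to 97.2%), beside 83.6% of all ZT12 sites. These intervals cover counting error only, and sites near each other are not independent. The 18 shared, 5 ZT0-only and 2 ZT12-only sites make 25 places in all. The ZT0-only sites were spread over Dbp, Tef and Nfil3, and the ZT12-only sites belonged to Bhlhe40 and Bhlhe41. With so few single-time sites, how they fell on the members was not compared with other genes.

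By number in windows of 200 kb, an order that changed with smaller windows, the Dbp window came first with 8 ZT0 and 7 ZT12 sites, followed by Tef with 7 and 4. Bhlhe40 had 3 ZT0 and 4 ZT12 sites, Nfil3 had 3 and 2, and Hlf had 2 and 2. Bhlhe41 came last with 0 ZT0 sites and 1 ZT12 site. The median over the 6 windows was 3 at each time. Over all protein-coding genes, windows made in the same way had a median of 3 ZT0 sites (quartiles 1 and 6) and 2 ZT12 sites (quartiles 0 and 4). Fewer ZT0 sites than at Dbp were found in 85.6% of these windows, and fewer than at Tef in 80.8%. The windows of Dbp and Tef also hold the most protein-coding genes, 30 and 17, while that of Bhlhe40 holds 4 and those of Hlf, Nfil3 and Bhlhe41 hold 3 each.

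**Figure D1:**
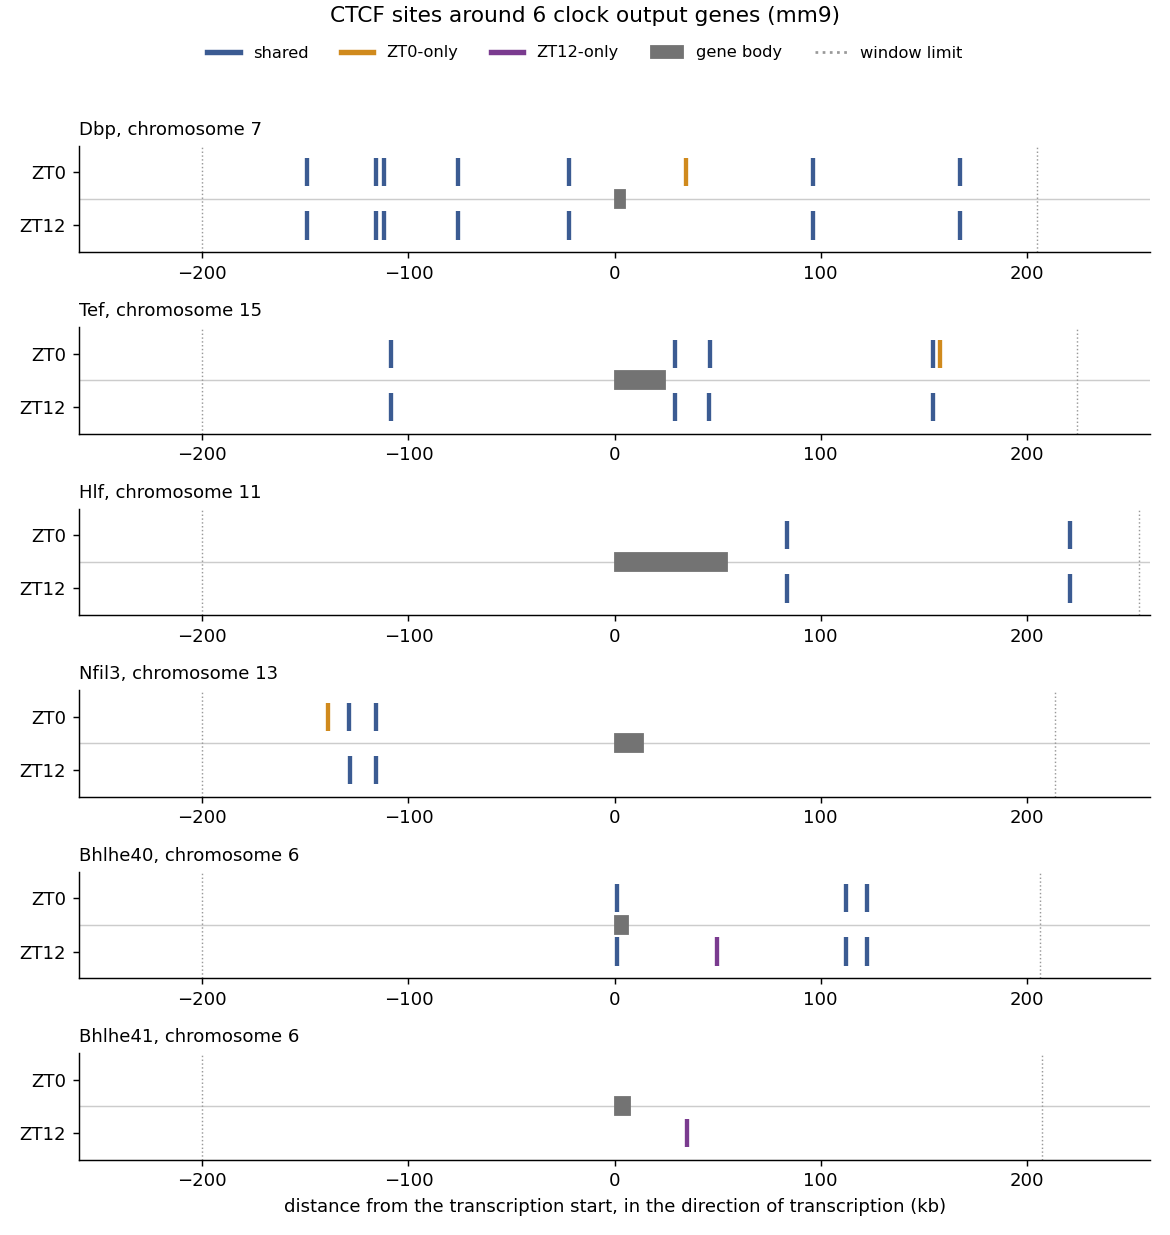
CTCF sites around the 6 genes in mm9, plotted by distance from the transcription start in kb, with positive values in the direction of transcription. Ticks above the line are ZT0 sites and ticks below are ZT12 sites, coloured as shared, ZT0-only or ZT12-only; the grey box is the gene body and dotted lines mark the window. The Dbp window holds 8 ZT0 sites, Tef is drawn with 5 of its 7 ZT0 sites, and the Bhlhe41 window holds a single ZT12-only site.

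The PAR bZIP activators are described first. Dbp lies on chromosome 7 from 52960458 to 52965525 on the plus strand, in a gene-dense stretch with a GC content of 50.9%, the highest of the 6 windows. Its window had 19.7 ZT0 and 17.3 ZT12 sites per Mb, beside 5.02 and 3.55 on chromosome 7 as a whole. All 7 ZT12 sites were shared, and 1 of the 8 ZT0 sites was not. The site nearest to the Dbp start was shared and lay upstream, from 52938038 to 52938582 at ZT0 (545 bp) and from 52937933 to 52938394 at ZT12 (462 bp). It was 21.9 kb from the start at ZT0 and 22.1 kb at ZT12, in an intron of the fucosyltransferase gene Sec1 and 1.47 kb from the start of Ntn5. It was the widest site in the 6 windows at both times, and 96.4% of all ZT0 sites and 94.4% of all ZT12 sites were narrower.

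On the other side of Dbp the lists parted. The next site downstream at ZT0 was the ZT0-only site from 52994745 to 52995003 (259 bp), 34.3 kb from the start, in an intron of the sterol sulfotransferase gene Sult2b1. The nearest ZT12 site to it was 56.4 kb away. At ZT12 the next site downstream of Dbp was therefore the shared site in an intron of the kinase gene Lmtk3, 96.2 kb from the start, listed from 53056726 to 53057205 at ZT0 and from 53056674 to 53057101 at ZT12 (480 and 428 bp). The interval between the sites on either side of the Dbp start was 56.2 kb at ZT0 and 118 kb at ZT12. It touched 9 protein-coding genes at ZT0, namely Car11, Dbp, Fam83e, Ntn5, Rpl18, Sec1, Spaca4, Sphk2 and Sult2b1, and 11 at ZT12, with Gm5897 and Lmtk3 added. Over the 22106 genes at ZT0 and 21928 at ZT12 with a site on both sides of the start, the median interval was 272 and 416 kb, so Dbp sat in a short interval at both times.

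The other Dbp sites were all shared. A site 75.9 kb upstream lay in a coding exon of Rasip1, from 52884150 to 52884607 at ZT0 and from 52884190 to 52884573 at ZT12 (458 and 384 bp). Around the branched-chain aminotransferase gene Bcat2, a site in the 3′ UTR ran from 52844658 to 52844977 at ZT0 and from 52844642 to 52844938 at ZT12 (320 and 297 bp), 115 kb upstream of Dbp. The next, between genes and 112 kb upstream, ran from 52848487 to 52848843 at ZT0 and from 52848593 to 52848858 at ZT12 (357 and 266 bp). Its nearest start, 22.2 kb away, was that of Fgf21, which encodes a liver hormone of the fasting response. The farthest upstream site, 149 kb away in an intron of the hydroxysteroid dehydrogenase gene Hsd17b14, ran from 52811163 to 52811574 at ZT0 and from 52811257 to 52811531 at ZT12 (412 and 275 bp). The farthest downstream site, 167 kb away, ran from 53127863 to 53128387 at ZT0 and from 53127949 to 53128329 at ZT12 (525 and 381 bp). Its midpoint was 0.017 kb from the start of Kdelr1, a receptor that returns proteins to the endoplasmic reticulum. All 7 shared Dbp sites were narrower at ZT12, beside 71.2% of all overlapping pairs in the genome.

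Tef lies on chromosome 15 from 81632851 to 81657291 on the plus strand. Of its 7 ZT0 sites 4 were shared, as was each of its 4 ZT12 sites. The nearest site to the start was shared and lay between genes, 4.51 kb past the end of Tef, from 81661797 to 81662268 at ZT0 and from 81661827 to 81662274 at ZT12 (472 and 448 bp). It was 28.9 kb from the start at ZT0 and 29.0 kb at ZT12. Tef has 11 annotated transcript starts, and from the nearest of them the distance was 10.4 kb at ZT0 and 10.5 kb at ZT12. Upstream, the first site was 108 kb away, in a coding exon of Chadl, from 81524317 to 81524684 at ZT0 and from 81524357 to 81524634 at ZT12 (368 and 278 bp). Both sites around Tef were thus the same at both times, and the interval between them was 137 kb, with Chadl, Rangap1, Tef and Zc3h7b in it.

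All 3 ZT0-only sites of Tef lay farther downstream. The farthest ran from 81790565 to 81790788 in the first intron of the phosphomannomutase gene Pmm1 (224 bp), 158 kb from the Tef start. It lay 0.684 kb from the Pmm1 start and only 3.30 kb from a ZT12 site, the smallest such gap among the single-time sites in the windows. That neighbouring site was shared and lay in another intron of Pmm1, from 81786894 to 81787349 at ZT0 and from 81787050 to 81787262 at ZT12. Its width fell by 243 bp, from 456 to 213 bp, the largest difference in the 6 windows. The site in the 3′ UTR of Tob2 went the other way, from 283 bp at ZT0 (81678796 to 81679078) to 375 bp at ZT12 (81678709 to 81679083), and was the one with the largest gain in width.

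Hlf, the longest of the 6 genes at 54.4 kb, lies on chromosome 11 from 90197849 to 90252231 on the minus strand. Its 2 sites were shared, and both lay downstream and between genes. The nearer ran from 90168349 to 90168613 at ZT0 and from 90168334 to 90168612 at ZT12 (265 and 279 bp), 29.2 kb past the end of the gene and 83.6 kb from the start. The farther ran from 90031273 to 90031687 at ZT0 and from 90031359 to 90031619 at ZT12 (415 and 261 bp), 221 kb from the start and 17.5 kb from the start of Mmd. No listed site lay upstream of Hlf within the window, and the first one upstream was 3578 kb away at ZT0 and 3081 kb away at ZT12, neither of them shared. The interval around the Hlf start was thus 3661 kb at ZT0 and 3165 kb at ZT12, and a shorter one was found for 92.2% and 88.1% of the genes with sites on both sides. Such intervals are free of listed sites only, since the lists are much shorter than the total of sites that the study describes. Whether called peaks are missing from these intervals was not tested. Within its window Hlf had 4.40 sites per Mb in each list, against 7.30 ZT0 and 4.92 ZT12 sites per Mb on chromosome 11.

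Nfil3, the bZIP repressor gene, lies on chromosome 13 from 53062578 to 53076442 on the minus strand. All its sites lay upstream, between 116 and 139 kb from the start, and none lay in the gene or downstream of it within the window. The nearest was shared and lay between genes, from 53192047 to 53192329 at ZT0 and from 53192153 to 53192353 at ZT12. It was 283 bp wide at ZT0 and narrowed to 201 bp at ZT12, and only 1.28% of all ZT12 sites were narrower. The next, also shared, lay in the 3′ UTR of Ror2, a receptor of the Wnt pathway, from 53204897 to 53205288 at ZT0 and from 53204841 to 53205222 at ZT12 (392 and 382 bp). The ZT0-only site lay in an intron of Ror2 from 53215142 to 53215372 (231 bp), 9.92 kb from the nearest ZT12 site. Nfil3 and the RNA-binding hydratase gene Auh were the only protein-coding genes in the interval around the Nfil3 start, which measured 384 kb at both times and was bounded by shared sites.

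The bHLH repressor genes share chromosome 6 and differed from each other. Bhlhe40 lies from 108610623 to 108616919 on the plus strand, and it was the only member with a site in its body. This site was shared, from 108611566 to 108611886 at ZT0 and from 108611550 to 108611851 at ZT12 (321 and 302 bp), in intron 3, with its near edge 0.943 kb from the start at ZT0 and 0.927 kb at ZT12. A site within 1.5 kb of the start was listed for 8.03% of all genes at ZT0 and 5.36% at ZT12. The ZT12-only site lay between genes from 108659998 to 108660304 (307 bp), 43.1 kb past the end of Bhlhe40 and 48.1 kb from the nearest ZT0 site. Because of it, Bhlhe40 had more ZT12 than ZT0 sites, which held for 7.61% of genes, while 55.4% had more ZT0 sites.

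The remaining Bhlhe40 sites lay at Arl8b, a gene for a small GTPase of lysosomes. The first ran from 108722908 to 108723300 at ZT0 and from 108723006 to 108723224 at ZT12 (393 and 219 bp), between genes and 9.95 kb from the Arl8b start. The second ran from 108732806 to 108733166 at ZT0 and from 108732881 to 108733090 at ZT12 (361 and 210 bp), with its midpoint 0.067 kb from that start. Both were narrower at ZT12, as were 71.2% of all overlapping pairs in the genome, with differences of -174 and -151 bp. Upstream of Bhlhe40 the first listed site was 234 kb from the start at both times, beyond the window, and the interval held only Bhlhe40 and the inositol trisphosphate receptor gene Itpr1.

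Bhlhe41 lies from 145806763 to 145814078 on the minus strand, and a single site was listed in its window. It was ZT12-only, from 145778631 to 145778930 (300 bp), between genes, 27.8 kb past the end of Bhlhe41 and 35.1 kb from its start, and 10.3 kb from the start of Rassf8. The nearest ZT0 site was 413 kb from this site and 448 kb from the Bhlhe41 start, and 87.5% of all genes had a nearer ZT0 site. A window with 0 ZT0 sites was found for 20.9% of all genes, and one with 0 ZT0 sites and at least 1 ZT12 site for 454 of the 22350 genes, or 2.03%. The width of the site was above that of 57.1% of all ZT12 sites. The interval around the Bhlhe41 start was 922 kb at ZT0 and 575 kb at ZT12.

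By the distance from the 5′ end of the gene to the nearest site, the order at ZT0 was Bhlhe40, Dbp, Tef, Hlf, Nfil3 and Bhlhe41. At ZT12 Bhlhe41 moved to the place before Hlf, and the distances of the other 5 genes differed by less than 1 kb between the times. Measured from the nearest annotated transcript start, Tef came before Dbp at both times, with 10.4 and 21.9 kb at ZT0. The median over all protein-coding genes was 47.7 kb at ZT0 and 76.1 kb at ZT12. Bhlhe40, Dbp and Tef lay under these medians at both times, Nfil3 and Hlf above them, and Bhlhe41 above at ZT0 and under at ZT12.

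The window limit of 200 kb passed through none of the sites. The sites closest to it on the inside were the farther Hlf site, 33.4 kb within the limit at ZT0, and the Kdelr1 site of Dbp, 37.1 kb within it. The closest on the outside was the site upstream of Bhlhe40, from 108376681 to 108376928 at ZT0 and from 108376568 to 108377044 at ZT12, which lay 33.7 and 33.6 kb beyond the limit. The next was a ZT0 site of Tef from 81895990 to 81896264, 38.7 kb beyond it.

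Widths differed between the times and between shared and single-time sites. A wider peak is a longer stretch above the calling threshold, which depends on the depth as well as on binding. The 18 shared sites had a median width of 392.5 bp at ZT0 (265 to 545 bp) and 288 bp at ZT12 (201 to 462 bp), beside 346 and 293 bp over all shared sites. A narrower peak at ZT12 than at ZT0 was found for 16 of them (88.9%, Wilson interval 67.2 to 96.9%), beside 71.2% of the 5665 pairs across the genome. The exceptions were the Tob2 site near Tef and the nearer Hlf site. The median difference, ZT12 minus ZT0, was -82.5 bp in the windows and -47 bp over all pairs. For the 5 ZT0-only sites the median was 231 bp, beside 277 bp over all 4433 ZT0-only sites. The 2 ZT12-only sites were 300 and 307 bp wide, above the median of 250 bp over all 1113 ZT12-only sites.

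**Figure D2:**
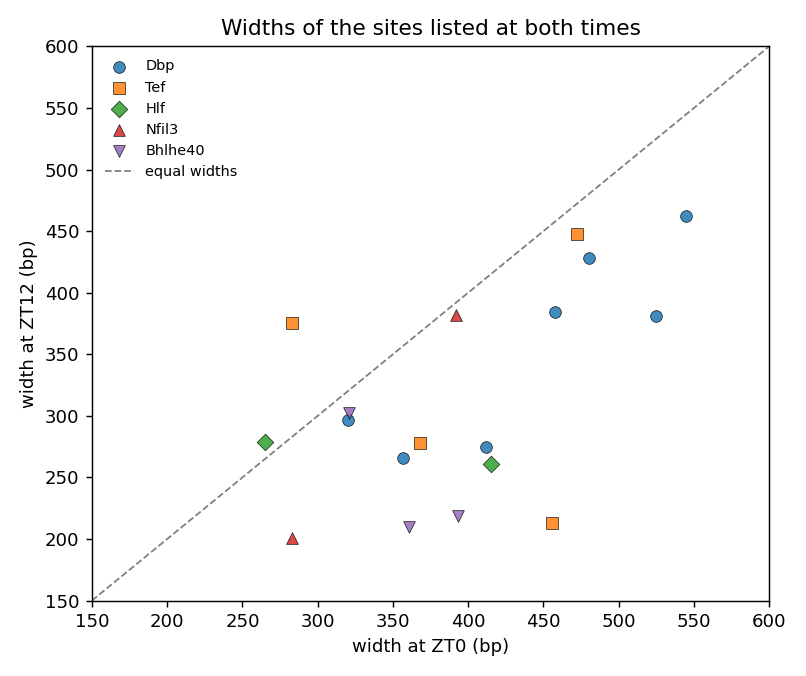
Width in bp of the 18 shared sites at ZT0 (horizontal axis) and ZT12 (vertical axis), with 1 point per site, marked by gene, and a dashed line at equal widths. Of the 18 points 16 lie under the line, and those above it are the Tob2 site of Tef and the nearer site of Hlf.

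Midpoints of the shared sites lay close together. The shift between the times had a median of 25.5 bp, from 0.5 bp at the Arl8b start to 146.5 bp at the site upstream of Dbp, beside a median of 32.5 bp over all pairs. The overlap was 177 to 442 bp long. In all 18 pairs the best motif match was the same at both times, as in 98.8% of all pairs.

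The CTCF motif was read from the mm9 sequence of each site with a weight matrix of 19 bp learned from the ZT0 list itself. Its consensus, the commonest base of every column, was TGGCCACCAGGGGGCGCTA. Since the labels of the lists name FIMO, a motif search, the presence of a match is not a result about these genes. At a p of 1e-05 per position, 22 of the 25 places held a match (88.0%), beside 88.4% of all ZT0 and 89.7% of all ZT12 sites, and beside 3.70% and 3.54% of stretches 5 kb away. The 3 places without one were the Chadl and Tob2 sites around Tef and the site inside Bhlhe40. The last had the lowest score of the 25 places, 8.26, and only 2.73% of the ZT0 sites scored with the same matrix had a lower one. The highest score, 25.1, belonged to the Hsd17b14 site of Dbp and was above that of 98.5% of the ZT0 sites.

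A score says how closely a match follows the matrix, in bits. All 5 ZT0-only and both ZT12-only sites held a match at a p of 1e-05. Their scores ran from 12.7 to 22.7 at ZT0 and from 17.2 to 18.2 at ZT12, against 8.26 to 25.1 for the shared sites, so the ranges overlapped. The median score was 20.7 for the ZT0-only sites and 18.3 for the shared sites. The lowest scores in these windows thus belonged to shared sites, those inside Bhlhe40 and around Tef. Scores of shared and single-time sites were not compared over the whole lists. Whether the medians or the lowest scores differ from the lists as a whole was therefore not tested.

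The sequence at the site nearest to each start is shown first, whatever its distance from that start. Each is read in the direction of the motif, with the 19 bp of the best-scoring stretch in capitals and 5 bases on either side in lower case, from the NCBIM37 (mm9) genome. At Bhlhe40 this stretch did not reach a p of 1e-05 and is shown only as the best one in the site. The stretches lie at chr7:52938289-52938307 on the minus strand for Dbp, at chr15:81661984-81662002 on the plus strand for Tef and at chr11:90168493-90168511 on the plus strand for Hlf. For Nfil3 the stretch lies at chr13:53192205-53192223 on the minus strand, for Bhlhe40 at chr6:108611678-108611696 on the minus strand, and for Bhlhe41 at chr6:145778797-145778815 on the plus strand, the last at ZT12 only.
Dbp, Sec1 intron: tggaaCAGCCTCCAGAGGGCGCTCtcggc
Tef, past the gene end: ccattCCACCAGTAGGTGGCGGGCgattc
Hlf, past the gene end: acagaTGACCACAAGGGGGCACCCagccc
Nfil3, upstream: gtgtgTGAGCAGCAGGTGGCGCTAgagtc
Bhlhe40, intron 3: ccgtgACGCCTGCAGGCGGCGAGAgacac
Bhlhe41, past the gene end: ataacTATACACTAGGGGGCAGCAgccac

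Further sites listed at a single time are shown in the same way, because they are where the lists differ. Whether binding differs there was not tested. The ZT0-only matches lie at chr7:52994926-52994944 on the plus strand in Sult2b1, at chr15:81790698-81790716 on the plus strand in Pmm1, and at chr13:53215280-53215298 on the plus strand in Ror2. The ZT12-only match past Bhlhe40 lies at chr6:108660148-108660166 on the minus strand.
Sult2b1 intron, near Dbp: ctcaaCGACCAGGAGAGGGCGCCAgagga
Pmm1 intron, near Tef: ccttgCCCTCAGTAGAGGGCGACCgtggg
Ror2 intron, near Nfil3: agataTAACCAGCAGGTGGCGCTGctgtc
Past Bhlhe40, ZT12-only: cttttTGCCCAGAAGAGGGCGATGgagac

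The strands of the best match in the sites on either side of a start were also compared. Convergent means that the left match, by genome position, is on the plus strand and the right one on the minus strand, so that they point at each other. Nfil3 and Bhlhe40 lay between convergent matches at both times, while Tef lay between divergent ones at both times. For Bhlhe40 and Tef this rests on a best match that did not reach a p of 1e-05, in the site inside Bhlhe40 and in the Chadl site, so the strand is uncertain there. Dbp lay between divergent matches at ZT0 and between matches on the same strand at ZT12, because the Sult2b1 site was ZT0-only. Hlf and Bhlhe41 lay between matches on the same strand at ZT0 and convergent ones at ZT12, over their long intervals. At Bhlhe41 the ZT0 orientation rests on an upstream best match with a score of only 4.41, which did not reach that p either. Of all genes with a site on both sides, 25.4% lay between convergent and 26.6% between divergent matches at ZT0, and 26.1% and 25.8% at ZT12. Matches on the same strand lay around 48.0% of these genes at ZT0 and 48.1% at ZT12. That class joins both plus and both minus, whereas convergent and divergent are each a single arrangement, so its larger share shows no preference.

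By annotation, 6 of the 25 places were centred within 1 kb of a transcript start, beside 20.4% of all ZT0 sites. A further 4 were exonic (5.49% of all ZT0 sites), 7 intronic (30.8%) and 8 lay between genes (43.3%). Most places were nearer to the 5′ end of another gene than to that of the member. By these 5′ ends, the nearest protein-coding start was the member's own at 6 of the 25, all of them at Hlf, Nfil3 and Bhlhe40. The same share was not computed over the windows of all genes, so it is not a result about the members. The Dbp and Tef windows hold 30 and 17 protein-coding genes, more than the other windows. The count was not made with all transcript starts, by which the site past the end of Tef lay 10.4 kb from Tef at ZT0. Upstream of the member start lay 9 places and downstream 16.

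The members bind E-boxes and D-boxes, so these were searched in the listed sites. None of the 25 places held the E-box CACGTG or, on either strand, the D-box TTATGTAA. Among all ZT0 sites, 5.64% held the E-box and 0.722% the D-box, and among all ZT12 sites 5.09% and 0.735%. The absence of these letters says nothing about binding of the factors.

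Counts were also made for other clock genes. Among 16 genes of the clock loop, all windows held a ZT0 site and 13 held one at ZT12, with medians of 4.5 and 2.5 sites. Summed over the clock loop windows, 44 of 75 ZT0 sites were shared, beside 56.2% of all ZT0 sites. Over all protein-coding genes, 20.9% of windows held no ZT0 site and 27.6% no ZT12 site, with medians of 3 and 2 sites. Of 7 liver genes known as PAR bZIP targets, among them Cyp7a1, Alas1 and Por, all windows held a ZT0 site and 5 held one at ZT12, with medians of 5 and 3. ZT12-only sites were found in 4 of the 13 clock loop windows with a ZT12 site and in 2 of the 5 such target windows. Of all protein-coding genes with a ZT12 site in the window, 61.3% had only shared ZT12 sites.

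By the smallest summed difference in the numbers of shared, ZT0-only and ZT12-only sites, taken over the 16 clock loop genes, Tef was most like Per3. Both had 4 shared and 3 ZT0-only sites, a difference of 0. Dbp was most like Csnk1d, with a difference of 2, and Bhlhe41 was most like Arntl, with a difference of 1, since Arntl had 1 ZT0-only and 1 ZT12-only site and no shared one. Bhlhe40 was most like Cry2, with a difference of 2, and Cry2 was also 1 of 2 genes tied for Nfil3 and for Hlf, with differences of 1 and 2.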

How the data were processed

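CTCF ChIP-seq of 4 liver samples was used, 2 for each time. Alignment by the authors was to NCBIM37/mm9 with Bowtie2, and peak calling with MACS2 followed a filter on mapping quality and the removal of duplicates. They deposited 1 list of peak positions per time, labelled as the FIMO peaks of both replicates; how replicates were combined is not given in the sources used here. Depth, and so precision per site, is unknown, and a weak site may be missing from either list.

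Starts were made 1-based. Gene bodies and transcripts came from GENCODE vM1 (mm9), whose chromosome lengths hold all sites; 5 of the 6 genes are also in the study's list of circadian genes, with the same coordinates, and Hlf is not. Sites were compared by an overlap of 1 bp. No test was run, because the lists hold no replicate. Distances run from the 5′ end of the gene to the nearest edge of the site, and annotation is that of the midpoint. Each motif matrix started from the 12-mer most enriched over stretches 5 kb away, written in the orientation with more GGC, and was refined in 3 rounds on ZT0 sites. Odd chromosomes were scored with the matrix of the others and the reverse. The motif search was tested on simulated sequences. p is per position and strand, under independent bases.

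The members and gene lists were chosen with earlier results of these data known. Some sites in the Tef window are counted but their details are not reported here. The genes named are the members, the genes next to their sites and the clock loop genes most like them in site counts. Alternatives changed the window, the overlap, the transcript start and the length of the ZT0 list. Python 3.11.15, NumPy 2.4.6 and matplotlib 3.10.9 were used.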

Additional observations from a re-analysis of the deposited data

How the results depend on the processing

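The counts followed the window size, as they must. With windows of 50, 100 and 500 kb there were 6, 10 and 48 ZT0 sites and 7, 9 and 39 ZT12 sites, of which 5, 7 and 33 were shared on either side. Nfil3 had 0 sites with windows of 50 or 100 kb. With 50 kb, Dbp had 2 ZT0 sites and 1 ZT12 site and Tef had 2 of each, and with 100 kb both had 4 ZT0 sites, so Dbp led at ZT0 only with 200 and 500 kb. Taking midpoints, or the coordinates of the study's list of circadian genes, could change no count, because no site crosses a window limit and the coordinates are the same, so these settings say nothing about stability. Requiring an overlap of 50% of both sites left 17 shared sites, and allowing gaps up to 500 bp left 18. With the ZT0 list reduced to its widest sites, as many as at ZT12, 18 ZT0 sites remained in the windows and 17 of them were shared (94.4%, above the interval of the percentage with the full list), which follows from removing narrow sites. The share over all sites was not computed for the reduced list or for the other overlap rules. The 56.2% of all ZT0 sites belongs to the full list and an overlap of 1 bp, so it is no comparison for these settings. All other shared percentages stayed within the confidence intervals. Of 12 distances to the nearest site, the 2 of Tef moved by over 1.5 times when measured from the nearest annotated transcript start, to 10.4 kb at ZT0 and 10.5 kb at ZT12, which put Tef before Dbp.

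No paired analysis was possible because each time has a single list for both replicates, and for the same reason no replicate was left out. A stricter peak threshold was not run, since the lists hold no score. The unknown depth limits what a site listed at a single time can show, because weaker peaks below the threshold do not appear in a list. The lists are much shorter than the total of sites that the study describes. Whether the motif search named in the labels removed peaks, and which, is not given in the sources used here. The part of that search in unlisted and single-time sites was not tested.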
